A study of Sus scrofa with 6 samples.

Results

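*BMP5*, *BAMBI*, *FZD9* and *CTGF* are 4 genes of secreted growth signals and their receptors that the study placed in its list of genes differing between ear tissue of large-eared and small-eared piglets. They were taken from the 280 named transcripts of that list by name, 1 transcript each, out of 22204 transcripts with a read in any library. Ear tissue came from 6 Sutai piglets, a line bred from Duroc and Chinese Taihu pigs, 3 of genotype qq (6161ST, 6165ST and 6407) and 3 of genotype QQ (6185STQ, 6415 and 6434), with 1 polyadenylated RNA library each. QQ stands for homozygous carriers of a duplication that takes in the last exons of *MSRB3* (CNV/CNV) and qq for piglets without it (wild-type). The sample labels give all 6 as new born, and no treatment is named for either group. The tissue is whole ear, a mixture of skin, hair follicles, glands and cartilage, so fewer cells of a type and less RNA per cell cannot be told apart. Both groups are small, and litter and sex are unknown here.

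The bone morphogenetic proteins (BMP) are secreted ligands that bind pairs of kinase receptors and act through SMAD proteins. *BMP5* is one such ligand, and mice that lack it have short ears, since the protein takes part in the growth of cartilage and bone. *BAMBI* encodes a membrane protein built like a receptor of the family but without the kinase, which damps BMP and TGF-beta signals. *FZD9* encodes a Frizzled receptor for Wnt ligands, a second family of growth signals that guides hair follicles and skeletal tissue. *CTGF*, now also called *CCN2*, encodes connective tissue growth factor, a matrix-associated protein that is induced by TGF-beta and acts on fibroblasts and chondrocytes.

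The transcripts are ENSSSCT00000001649 for *BMP5* (chr7:25344729-25469988), ENSSSCT00000012056 for *BAMBI* (chr10:40053341-40060319), ENSSSCT00000024638 for *FZD9* (chr3:10754783-10757147) and ENSSSCT00000004631 for *CTGF* (chr1:31673798-31680169). These are positions on Sscrofa 11.1 in the study's list. The lengths over which reads were counted were 1166 bases for *BMP5*, 2981 for *BAMBI*, 1776 for *FZD9* and 2376 for *CTGF*. Levels are given as RPKM, reads per kilobase of transcript and scaled to the counted reads of the library, and intervals are 95% exact Poisson limits of the read count, which cover counting error only. The libraries held 39.3 to 44.2 M (mega) counted reads. On the first principal component of the 500 most variable transcripts, which held 45.9% of the variance, the wild-type piglets 6161ST and 6165ST (-28.4 and -30.8) stood apart from the wild-type piglet 6407 (13.4) and from the CNV/CNV piglets (1.8 to 24.2).

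The members were chosen because the study listed them as different between these same groups of piglets, by a fold and a q-value on its own FPKM. The contrast of genotypes is therefore described below and not tested, and no p-value is given for a member. Transcripts just outside the thresholds of that list have no name here and are not shown. Each fold change sets CNV/CNV over wild-type piglets and comes from a quasi-likelihood fit in edgeR to all 16645 transcripts that passed its expression filter, all 4 members among them. Of the 4 members, 0 passed an adjusted p of 0.05 in edgeR and 3 had an unadjusted p under 0.05, against 1 transcript (0.00601%) and 890 transcripts (5.35%) of all those tested. DESeq2 called 1 of the 4 members and 28 transcripts (0.14%) of the 20040 that it gave an adjusted p. With it 2 members and 4.73% of 22191 transcripts had an unadjusted p under 0.05. Limma-voom called 0 members and 0 transcripts (0.0%), with 4 members and 5.48% of transcripts at an unadjusted p under 0.05. The members were picked on this contrast, so nothing is read from these counts.

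The ligand gene *BMP5* was lowest in 2 of the wild-type piglets and near the CNV/CNV level in the third. Its level was 1.38 RPKM (66 reads, interval 1.07 to 1.75) in 6161ST, 0.361 RPKM (17 reads, 0.21 to 0.577) in 6165ST and 8.56 RPKM (441 reads, 7.78 to 9.40) in 6407. In the CNV/CNV piglets it was 4.98 RPKM (228 reads, 4.35 to 5.67) in 6185STQ, 8.33 RPKM (424 reads, 7.56 to 9.16) in 6415 and 9.47 RPKM (470 reads, 8.63 to 10.4) in 6434. The groups thus overlapped, with the wild-type piglet 6407 above the CNV/CNV piglets 6185STQ and 6415. From the lowest upwards the order was 6165ST, 6161ST, 6185STQ, 6415, 6407 and 6434, and the counting intervals of neighbours overlapped between 6415 and 6407 and between 6407 and 6434. The wild-type mean was 3.43 ± 4.47 RPKM (SD, n = 3) and the CNV/CNV mean 7.59 ± 2.33 RPKM (SD, n = 3), which the fit gave as 1.22 on the log2 scale with a standard error of 0.91.

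The range within the wild-type group was 23.7-fold for *BMP5*, against 1.90-fold within the CNV/CNV group. The SD of its log2 CPM among wild-type piglets was 2.27, larger than that of 99.7% of the transcripts tested, whose median was 0.24. Among CNV/CNV piglets it was 0.49, larger than for 78.9%, with a median over transcripts of 0.27. Reads covered 54.6% of the length of the *BMP5* transcript in 6165ST, 94.9% in 6161ST and 99.2 to 99.9% in the other 4 piglets. Its log2 fold change was 3.28 without 6407 and 0.68 without 6165ST, and limma-voom, which averages log values, gave 2.28 with all 6 piglets. Without both 6161ST and 6165ST, which leaves 6407 as the lone wild-type library, it turned to -0.12.

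The decoy receptor gene *BAMBI* went the other way, and the groups did not overlap. Its level was 26.9 RPKM (3287 reads) in 6161ST, 39.7 RPKM (4789 reads) in 6165ST and 18.5 RPKM (2440 reads) in 6407, against 16.6 RPKM (1944 reads) in 6185STQ, 12.4 RPKM (1612 reads) in 6415 and 13.8 RPKM (1754 reads) in 6434. The 3 wild-type piglets were the 3 highest, with 6407 nearest to the CNV/CNV group, and the counting intervals of 6407 (17.8 to 19.3) and 6185STQ (15.9 to 17.4) did not overlap. Wild-type piglets averaged 28.4 ± 10.7 RPKM (SD, n = 3) and CNV/CNV piglets 14.3 ± 2.14 RPKM (SD, n = 3), with a fitted log2 value of -0.86 and a standard error of 0.25. The SD of its log2 CPM was 0.50 in wild-type and 0.21 in CNV/CNV piglets, larger than for 82.3% and 38.8% of transcripts. Without 6165ST, its highest piglet, the log2 fold change was -0.55, and without both 6161ST and 6165ST it was -0.33.

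The receptor gene *FZD9* had the lowest mean level of the 4 in both groups, and the wild-type piglets 6161ST and 6165ST were far below the other 4 piglets. It had 0.782 RPKM (57 reads, interval 0.592 to 1.01) in 6161ST, 0.292 RPKM (21 reads, 0.181 to 0.447) in 6165ST and 3.02 RPKM (237 reads, 2.65 to 3.43) in 6407. The CNV/CNV piglets had 3.89 RPKM (271 reads, 3.44 to 4.38) in 6185STQ, 3.81 RPKM (295 reads, 3.38 to 4.27) in 6415 and 5.45 RPKM (412 reads, 4.94 to 6.0) in 6434. All 3 CNV/CNV piglets were above all 3 wild-type piglets, but the gap to 6407 was small: its counting interval overlapped that of 6415, the next piglet in order. Group means of 1.37 ± 1.45 RPKM (SD, n = 3) for wild-type and 4.38 ± 0.927 RPKM (SD, n = 3) for CNV/CNV gave a fitted log2 value of 1.76 with a standard error of 0.71. As for *BMP5*, the spread lay in the wild-type group, 10.3-fold in range with an SD of 1.69 in log2 CPM, larger than for 99.4% of transcripts, while the CNV/CNV piglets ranged 1.43-fold. Reads covered 63.5% of the transcript in 6165ST, 89.9% in 6161ST and 94.4 to 98.1% in the others. The log2 fold change was 3.18 without 6407, 1.28 without 6165ST and 0.59 without both 6161ST and 6165ST, and 2.39 in limma-voom.

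*CTGF* had the highest mean level of the 4 in both groups, and all 3 CNV/CNV piglets were above all 3 wild-type piglets. Its level was 27.6 RPKM (2691 reads) in 6161ST, 37.2 RPKM (3574 reads) in 6165ST and 44.6 RPKM (4682 reads) in 6407, and 57.6 RPKM (5374 reads) in 6185STQ, 63.1 RPKM (6543 reads) in 6415 and 111 RPKM (11194 reads) in 6434. The groups did not overlap, and no counting interval overlapped that of the next piglet in order. The wild-type mean was 36.5 ± 8.53 RPKM (SD, n = 3) and the CNV/CNV mean 77.1 ± 29.2 RPKM (SD, n = 3), with a fitted log2 value of 1.20 and a standard error of 0.30. The SD of log2 CPM was 0.40 in wild-type and 0.52 in CNV/CNV piglets, larger than for 74.0% and 80.8% of transcripts, with 6434 the highest of all 6 piglets. The log2 fold change was 0.84 without 6434, 1.41 without 6407 and 0.84 without both 6161ST and 6165ST.

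**Figure D1:**
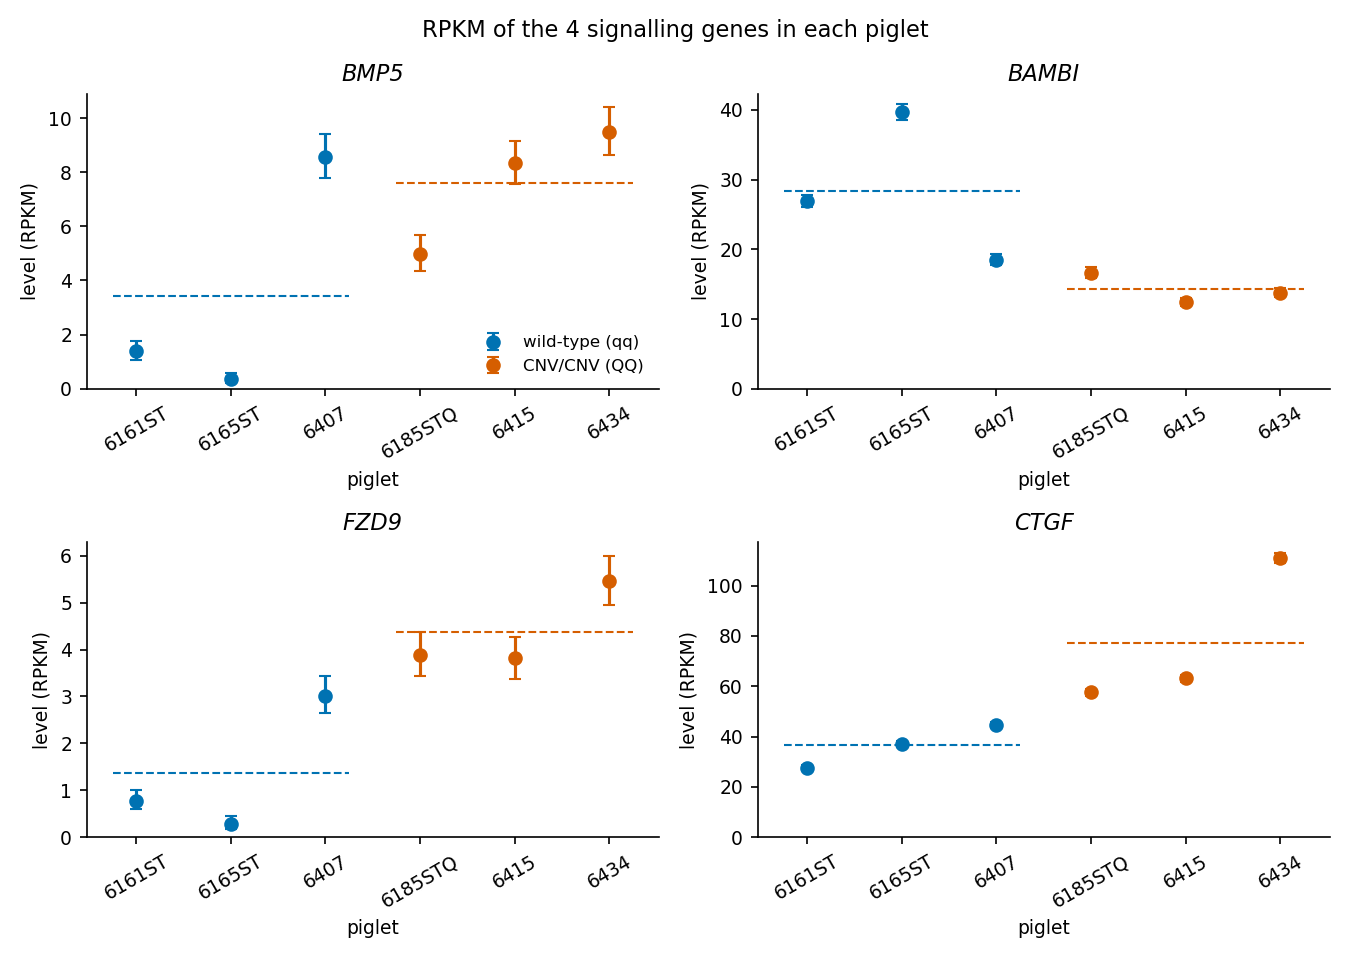
Level in RPKM (linear axis from 0) of *BMP5*, *BAMBI*, *FZD9* and *CTGF* in each piglet, with wild-type piglets in blue and CNV/CNV piglets in orange, 95% Poisson intervals of the read count as bars and a dashed line at each group mean (n = 3). *BMP5* at 8.56 RPKM in the wild-type piglet 6407 lies among the CNV/CNV piglets, while the groups are apart for the other 3 genes.

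In RPKM the groups did not overlap for 2 of 4 members with the higher values in CNV/CNV piglets (*FZD9* and *CTGF*) and for 1 of 4 with the lower values there (*BAMBI*), beside 2.11% and 12.1% of all transcripts tested. With the libraries scaled by TMM these shares were 4.45% and 5.61%, so that 44.2% of the transcripts without overlap were higher in CNV/CNV piglets instead of 14.8%, while the same 2 and 1 members had no overlap. A fitted change of over 2-fold was seen upwards in 3 of 4 members (*BMP5*, *FZD9* and *CTGF*) and in 1.63% of all transcripts, and downwards in 0 of 4 members and 1.45%. Since the members were picked on this contrast, nothing is read from these shares.

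**Figure D2:**
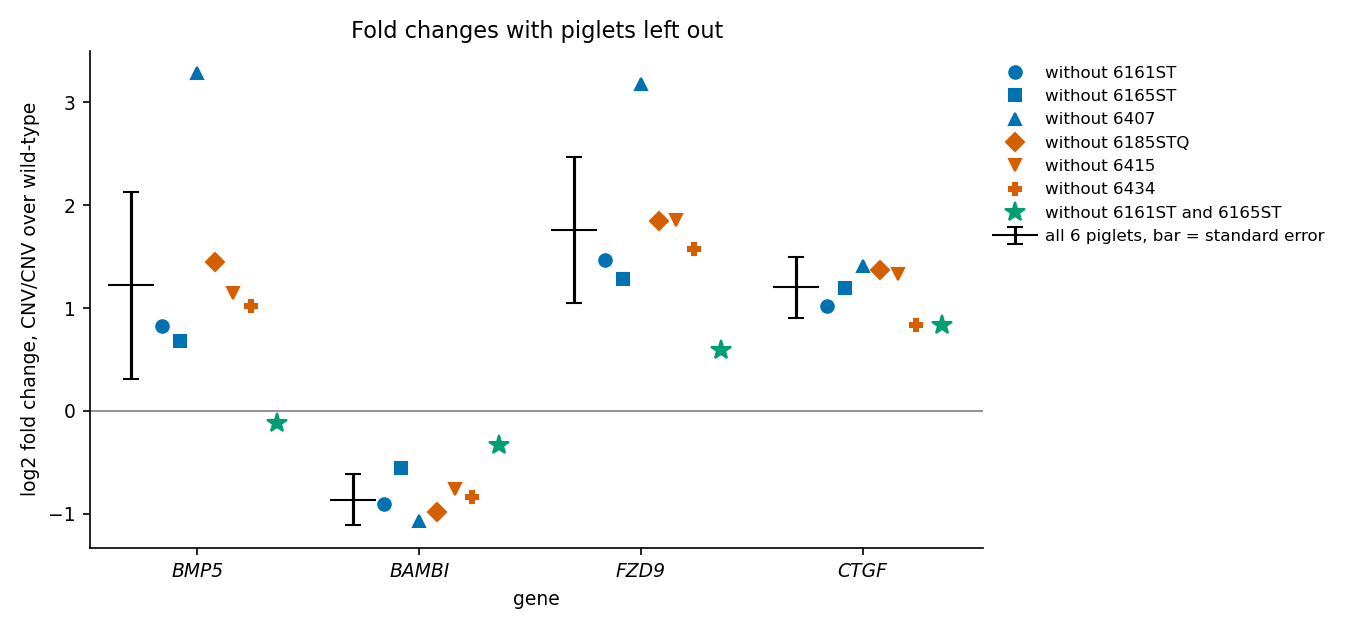
Fitted log2 fold change, CNV/CNV over wild-type, of the 4 genes with all 6 piglets (black, bar = standard error), without each piglet in turn (blue for wild-type, orange for CNV/CNV piglets) and without both 6161ST and 6165ST (green star). *BMP5* spans -0.12 to 3.28 and *FZD9* 0.59 to 3.18, whereas *CTGF* stays between 0.84 and 1.41.

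Piglets whose names hold the letters ST are found in both groups, 2 wild-type (6161ST and 6165ST) and 1 CNV/CNV (6185STQ), and the labels do not explain the letters. Between the ST-named piglets, CNV/CNV minus wild-type in log2 CPM was 2.88 for *BMP5*, 3.09 for *FZD9*, -0.82 for *BAMBI* and 1.0 for *CTGF*. For the 3 piglets without these letters the differences were 0.11, 0.65, -0.44 and 0.96, listed as before. *CTGF* thus had nearly the same difference in both sets, and *BMP5* had nearly none outside the ST-named set. Each set rests on a lone library on 1 side, 6185STQ (CNV/CNV) in the ST-named set and 6407 (wild-type) in the other. With a term for these letters in the fit, the log2 fold changes were 1.30 for *BMP5*, 1.77 for *FZD9*, -0.64 for *BAMBI* and 1.0 for *CTGF*. The wild-type piglet 6407 lay 3.60 above the mean of the other wild-type piglets for *BMP5* and 2.68 above it for *FZD9* on the log2 scale, 0.58 above it for *CTGF* and at -0.72 from it for *BAMBI*.

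Cartilage genes moved with *BMP5* and *FZD9*. Of 11 cartilage markers, among them *COL2A1*, the main cartilage collagen, and *ACAN*, the aggrecan gene, all 11 were lowest in 6161ST and 6165ST, as were *BMP5* and *FZD9*. Over all transcripts tested 13.1% had their lowest values in this pair. The markers were ranked by RPKM, but this share and the next one by TMM-scaled log2 CPM. The 11 markers were also named through the study's list and so chosen on the same contrast. Of the 72 named transcripts of the list that were tested and had the higher mean in CNV/CNV piglets, 48 (66.7%) were lowest in this pair, so that nothing is read from the 11 of 11. The summed RPKM of the 11 markers ranged from 12.6 in 6165ST and 78.7 in 6161ST to 709 in 6407 within the wild-type group, and from 497 to 1062 in the CNV/CNV group, and 0 of the 11 were without a read in any library. *COL2A1* itself had 24.4 RPKM in 6161ST, 0.483 in 6165ST and 351 in 6407, against 221, 542 and 156 in 6185STQ, 6415 and 6434. The part of cartilage in the differences of *BMP5* and *FZD9* was not tested. Per summed cartilage marker RPKM, *BMP5* came to 1.75% in 6161ST, 2.86% in 6165ST and 1.21% in 6407, and to 1.0%, 0.785% and 1.34% in 6185STQ, 6415 and 6434. In this ratio the ST-named wild-type piglets were the highest, but *COL2A1* alone held 351 of the 709 RPKM of the sum in 6407 and 0.483 of 12.6 RPKM in 6165ST. *FZD9* came to 0.994%, 2.32% and 0.426% in the wild-type piglets and to 0.781%, 0.358% and 0.771% in the CNV/CNV piglets in the same order, again highest in 6161ST and 6165ST. Set against each of the 11 markers singly, 6161ST and 6165ST were the highest pair for 3 of 11 for *BMP5* and for 3 of 11 for *FZD9*, and 6165ST alone was the highest for 7 of 11 for each gene. For *BMP5* it was the lowest against *CHAD* and *CHADL*, and for *FZD9* against *CHADL*, so the order depends on the marker.

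Markers of dermal fibroblasts and matrix were lowest in 6161ST and 6165ST for 8 of 10 genes, ranked by RPKM. Over all transcripts tested the share was 13.1%, ranked by TMM-scaled log2 CPM. These markers also came from the study's list. There, on the TMM scale, 66.7% of the tested transcripts with the higher CNV/CNV mean were lowest in this pair. Nothing is read from the 8 of 10. Their summed RPKM was 1186 in 6161ST, 1378 in 6165ST, 6281 in 6407, 1928 in 6185STQ, 10046 in 6415 and 7673 in 6434. Of the 10 genes, 0 were without a read in any library. *CTGF* was also lowest in 6161ST (27.6 RPKM) and 6165ST (37.2 RPKM). It was higher in 6185STQ (57.6 RPKM) than in 6407 (44.6 RPKM), where the summed markers had the reverse order. The part of these cells in the difference of *CTGF* was not tested. *BAMBI* was highest in 6165ST and 6161ST, the pair of piglets in which the summed markers of hair shaft, glands, sebaceous glands and pigment cells were also highest. The summed RPKM of 11 hair shaft genes was 2466 in 6161ST, 5009 in 6165ST and 1317 in 6407, against 1442, 896 and 1046 in 6185STQ, 6415 and 6434. Of these 11, 9 had the lower mean in CNV/CNV piglets, while the hair keratin genes *KRT83* and *KRT84* had the higher mean there, with 11.8 and 84.8 RPKM in 6185STQ. For 6 genes of gland and simple epithelium it was 244, 243 and 134 in the wild-type piglets and 99.0, 77.5 and 131 in the CNV/CNV piglets, and for 3 sebaceous gland genes 92.3, 87.1 and 29.7 against 18.8, 29.4 and 23.6. For 8 pigment cell genes it was 245, 294 and 160.0 against 88.2, 159.8 and 90.7. All 6, 3 and 8 genes of these lists had the lower mean in CNV/CNV piglets, and like the cartilage markers they came from the study's list. None of the genes in these lists was without a read in any library, and the part of these cell types in the difference of *BAMBI* was not tested.

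**Figure D3:**
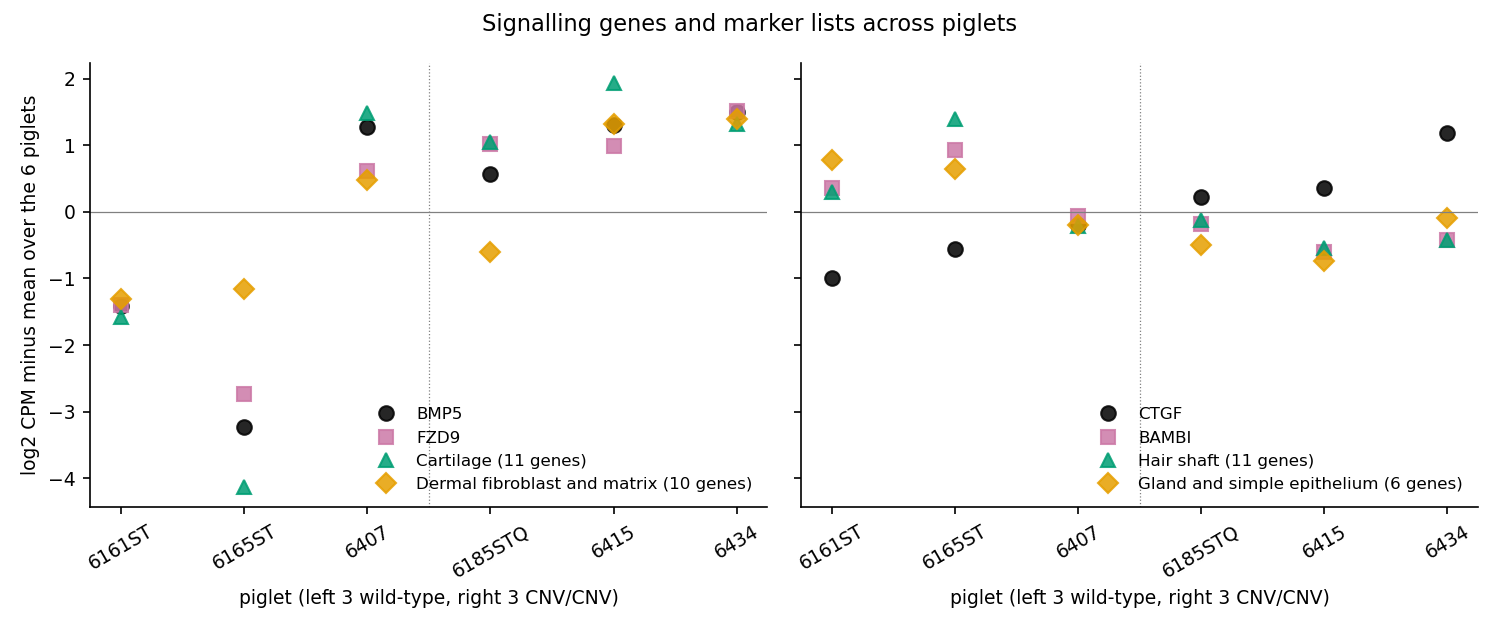
Log2 CPM of each signalling gene minus its mean over the 6 piglets, beside the median of the same quantity over the genes of a marker list, for each piglet (wild-type on the left and CNV/CNV on the right of the dotted line). *BMP5*, *FZD9* and the cartilage list share their low values in 6161ST and 6165ST (-4.13 for the cartilage list in 6165ST), and *BAMBI* and the hair shaft list share their highest value in 6165ST.

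The pattern of each member over the 6 libraries was set beside that of 237 other named transcripts of the study's list, by the root mean square difference of log2 CPM after each was centred on its own mean. For *BMP5* the closest were *EXTL1*, a glycosyltransferase gene of the exostosin family (0.33), *CHAD*, the gene of the cartilage protein chondroadherin (0.34), and *ACAN* (0.36), where the median over all 237 was 2.22. *ACAN* had 8.08, 2.43 and 43.6 RPKM in 6161ST, 6165ST and 6407 and 32.3, 65.2 and 33.1 RPKM in 6185STQ, 6415 and 6434. For *FZD9* the closest were *HAPLN3*, a gene of a hyaluronan and proteoglycan link protein (0.18), *CHAD* (0.27) and *EXTL1* (0.34), with a median of 2.05. *BMP5* and *FZD9* differed from each other by 0.41, while each differed from *BAMBI* by over 2 on this scale (2.24 and 2.03). For *BAMBI* the closest were *HOXC13*, a hair follicle transcription factor gene and one of the hair shaft list (0.09), *GNMT*, a methyltransferase gene (0.16), and *SELENBP1*, a gene of a selenium-binding protein (0.18), with a median of 0.67. *HOXC13* had 19.7, 31.0 and 13.3 RPKM in the wild-type piglets and 12.8, 7.98 and 10.1 RPKM in the CNV/CNV piglets, the latter in the order 6185STQ, 6415 and 6434. For *CTGF* the closest were *COL14A1*, a collagen gene of the dermal fibroblast and matrix list (0.26), *ANG1* (0.26) and *NTN3*, a netrin gene (0.27). The median over all 237 was 1.23. *CTGF* differed from *FZD9* by 1.06, from *BAMBI* by 1.13 and from *BMP5* by 1.33, so that its pattern was further from each of the other 3 members than from these 3 genes. The transcripts compared share the same 6 libraries, and all were put in the list on this contrast.

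Levels of the members can be compared with each other per length. In wild-type piglets the order of the mean RPKM was *CTGF* (36.5), *BAMBI* (28.4), *BMP5* (3.43) and *FZD9* (1.37), and the SDs of *CTGF* and *BAMBI* (8.53 and 10.7) were larger than the gap between these neighbours, as was that of *BMP5* (4.47) for the gap between *BMP5* and *FZD9*. Within each piglet of both groups, though, *FZD9* was below *BMP5*, with a ratio of RPKM from 0.353 in 6407 to 0.811 in 6165ST. The counting intervals of *FZD9* and *BMP5* overlapped in 6165ST (0.181 to 0.447 and 0.21 to 0.577). They also did in 6185STQ (3.44 to 4.38 and 4.35 to 5.67), so the order is not settled in these piglets. In CNV/CNV piglets the order was *CTGF* (77.1), *BAMBI* (14.3), *BMP5* (7.59) and *FZD9* (4.38), and each gap between neighbours was larger than the SD of either gene. *CTGF* ranked high among all transcripts by RPKM in every library, from the 87.6th percentile in 6161ST to the 97.6th in 6434, and *BAMBI* lay between the 77.4th and the 91.6th. *BMP5* ranged from the 31.3rd percentile in 6165ST to the 73.0th in 6434, and *FZD9* from the 29.4th to the 63.4th in the same piglets.

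The ratio of the decoy receptor gene to the ligand gene, *BAMBI* over *BMP5* in RPKM, was 19.5 in 6161ST, 110.2 in 6165ST and 2.16 in 6407, and 3.34 in 6185STQ, 1.49 in 6415 and 1.46 in 6434. The wild-type piglet 6407 lay below the CNV/CNV piglet 6185STQ, and the groups overlapped. The ratio in 6165ST rests on 17 reads of *BMP5* (0.361 RPKM, interval 0.21 to 0.577) and is therefore imprecise. The ratio of *CTGF* to *BAMBI*, which was looked at after the values had been seen, was 1.03, 0.936 and 2.41 in 6161ST, 6165ST and 6407 and 3.47, 5.09 and 8.01 in 6185STQ, 6415 and 6434. Here the CNV/CNV piglets were all above the wild-type piglets. The groups were already apart for each gene singly, with *CTGF* higher and *BAMBI* lower in CNV/CNV piglets.

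**Figure D4:**
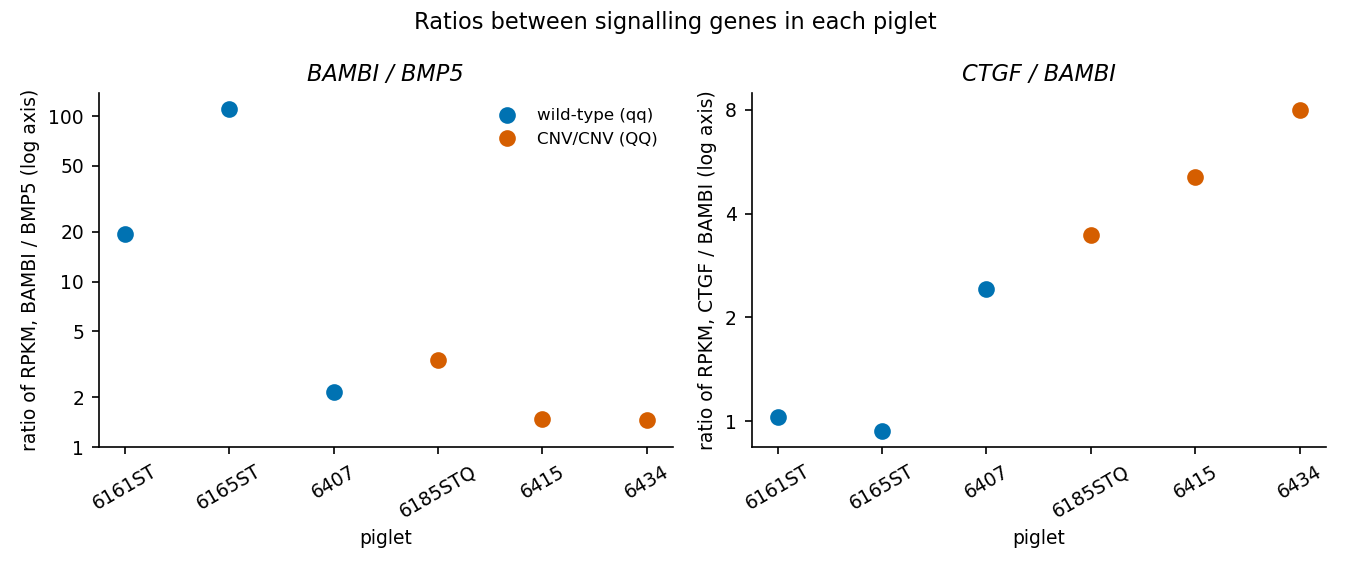
Ratio of RPKM of *BAMBI* to *BMP5* (left) and of *CTGF* to *BAMBI* (right) in each piglet on log axes, with wild-type piglets in blue and CNV/CNV piglets in orange. *BAMBI* over *BMP5* is 110.2 in 6165ST (on 17 reads of *BMP5*) and 2.16 in 6407, both wild-type. *CTGF* over *BAMBI* runs from 0.936 to 2.41 in wild-type and from 3.47 to 8.01 in CNV/CNV piglets.

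Of a list of 119 other genes of BMP, TGF-beta, Wnt and CCN signalling, 2 could be matched by name, since names were at hand for the study's list alone. These were *SOST*, which encodes sclerostin, a secreted inhibitor of the Wnt co-receptors, and *ASPN*, the gene of asporin, a matrix proteoglycan that binds TGF-beta. Of these 2, 0 passed an adjusted p of 0.05 in edgeR, DESeq2 or limma-voom and 1 had an unadjusted p under 0.05 in each of the tools, beside 5.35%, 4.73% and 5.48% of all transcripts, and both were in the study's list and so chosen on this contrast. *SOST* (ENSSSCT00000018914) had 0.991 RPKM (26 reads) in 6161ST, 1.16 RPKM (30 reads) in 6165ST and 2.83 RPKM (80 reads) in 6407, and 2.23 RPKM (56 reads) in 6185STQ, 6.42 RPKM (179 reads) in 6415 and 5.92 RPKM (161 reads) in 6434. *ASPN* (ENSSSCT00000008845) had 33.6, 28.0 and 83.9 RPKM in 6161ST, 6165ST and 6407, and 37.6, 123 and 158 RPKM in 6185STQ, 6415 and 6434. For both genes the groups overlapped, with 6407 above the CNV/CNV piglet 6185STQ and the lowest values in 6161ST and 6165ST, as for *BMP5*. The means were 1.66 ± 1.02 and 4.86 ± 2.29 RPKM for *SOST* (log2 fold change 1.65, standard error 0.54) and 48.5 ± 30.8 and 106 ± 61.8 RPKM for *ASPN* (1.23, standard error 0.58). Per length, *SOST* was above *FZD9*, the Wnt receptor gene, in 6161ST, 6165ST, 6415 and 6434, and below it in 6407 (2.83 and 3.02 RPKM) and 6185STQ (2.23 and 3.89 RPKM). The counting intervals of *SOST* and *FZD9* overlapped in 6161ST, 6434 and 6407, so their order is not settled there.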

How the data were processed

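RNA from ear tissue of 6 piglets was sequenced by the study on an Illumina HiSeq platform from both fragment ends. The deposited counts give the uniquely mapped reads of each Ensembl transcript. The authors computed RPKM from count, transcript length and library total, and recomputing it gave the deposited value for 100% of transcripts within a relative tolerance of 0.001. The percent of each transcript's length covered by reads was also deposited. Transcripts that a table does not list were set to 0. The study names TopHat and Sscrofa 11.1, while the notes of the submitters on processing give Bowtie2, TopHat, Cuffdiff and Sscrofa 10.2, so the build behind the counts is open. Neither versions, the counting program nor strand are given in the sources used here, so reads of overlapping genes cannot be told apart. The study's own fold changes and q-values, from Cuffdiff, were not used. Its list gave transcript names and positions alone, and 264 of its 280 transcripts were in the tables.

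Genotype groups came from the sample labels, 3 piglets each. Counts were fitted with edgeR 4.0.16 in R 4.3.3 (filterByExpr, TMM, glmQLFit, glmQLFTest, genotype as the only term, Benjamini-Hochberg adjustment over 16645 transcripts, biological coefficient of variation 0.263), which was tested on simulated data. Standard errors were derived from the F value. Log2 CPM used a prior count of 2. No pair of libraries agreed within sampling noise (chi-square per degree of freedom of at least 49.6). P-values set the difference between the genotypes against the spread between these piglets, whose litters are unknown. The members and the gene lists were chosen with earlier results of these data known. Alternatives were DESeq2 1.42.0, limma-voom 3.58.1, upper quartile and no TMM scaling, other filters, libraries left out and a term for the letters ST. Named genes were the 4 members, the 3 transcripts nearest in pattern to each, matched pathway genes and markers of lists that moved with a member. The marker lists not described above, red blood cell and immediate early genes, rested on 1 matched gene each, *ALAS2* and *FOS*. These had 0.175 to 0.628 and 9.02 to 25.9 RPKM in wild-type and 0.549 to 1.15 and 12.0 to 71.7 RPKM in CNV/CNV piglets. No counted transcript could be matched by name to *S100A3*, *HBB* and *DUSP1* of the lists, since names came from the study's list alone. Whether these genes had reads is thus not known here.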

Additional observations from a re-analysis of the deposited data

How the results depend on the processing

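The log2 fold changes of *BAMBI*, *FZD9* and *CTGF* kept their sign under every alternative run, and that of *BMP5* under all but 1. Without both 6161ST and 6165ST *BMP5* turned to -0.12, *BAMBI* was at -0.33 and *FZD9* at 0.59 instead of 1.76, where the lone wild-type library was assumed to vary like the CNV/CNV libraries. Over the fits that left out 1 piglet, *BMP5* ran from 0.68 to 3.28, *BAMBI* from -1.07 to -0.55, *FZD9* from 1.28 to 3.18 and *CTGF* from 0.84 to 1.41. Limma-voom gave 2.28 for *BMP5* instead of 1.22 and 2.39 for *FZD9* instead of 1.76. The move exceeded the SD within groups for *BMP5* and *FZD9* without 6407 (3.28 and 3.18). It did so too for *BAMBI* without both 6161ST and 6165ST (-0.33). Apart from the turn in sign of *BMP5*, all other values moved by less than this SD, those of limma-voom among them. The SD was wide for *BMP5* and *FZD9*. Library totals without TMM shifted the median of all transcripts from -0.001 to -0.128 on the log2 scale. The number of transcripts called, 1 in edgeR with all piglets, was 28 by DESeq2, 2 without TMM, 3 without a filter, 2 with the term for the letters ST, 0 with a mean of at least 1 RPKM, 0 by limma-voom, 0 without 6161ST and 6165ST, and 0 to 6 with 1 piglet left out (6 without 6407). The cause of these changes was not tested. No paired analysis was possible because the labels give no replicate numbers or shared litters. Depth limits *BMP5* and *FZD9* in 6165ST, with 17 and 21 reads.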
